A study of Glycine max with 6 samples.

Results

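LAR1 and ANR1 are putative genes for reductases at what are thought to be the initial steps of proanthocyanidin synthesis. Their signals were compared between Clark soybeans with a black (iRT) and with a brown (irT) seed coat. All probe sets carrying LAR1 or ANR1 as their single gene symbol were taken, which gave 1 probe set for each gene and thus 2 of the 37641 soybean probe sets on the array, where 6029 genes are named by a symbol of their own. Seed coat RNA came from 3 plants of each genotype, sampled at the transition to seed maturation, when a fresh seed weighs 300 to 400 mg, and 100 ng of it was transcribed in vitro for each array. The genotypes are nearly isogenic lines of the variety Clark that share the i and T alleles and carry R in black and r in brown. Each genotype is represented by 1 line, so that the R locus and any other difference between the lines cannot be told apart. Signals were normalized together by RMA and are given on the log2 scale.

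Proanthocyanidins are polymers of flavan-3-ols, and in the soybean seed coat they can form beside the anthocyanins from shared precursors. Leucoanthocyanidin reductase (LAR) converts leucocyanidin to catechin, whereas anthocyanidin reductase (ANR) converts cyanidin to epicatechin. Leucocyanidin is the product of dihydroflavonol reductase (DFR) and is also the substrate of anthocyanidin synthase (ANS), whose product cyanidin is used by ANR or is glycosylated to an anthocyanin.

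In the Glycine max v4.0 assembly of RefSeq, LAR1 lies on chromosome 20 and ANR1 on chromosome 8, and both are annotated as protein-coding. ANR1 and ANR2 are adjacent there, with 0 annotated genes starting between them. No probe set carries the symbol ANR2, and the annotation does not tell whether the ANR1 probe set also binds transcripts of that neighbour. The RT-PCR primers designed in the study are shown because they tie each gene name to a transcript sequence. The primer table sets the LAR1 pair beside the LAR1 probe set analysed here and sets no probe set beside the ANR1 pair. The sequences are written 5′ to 3′.
LAR1 forward (qL1F): taggctttggtgaggaggaa
LAR1 reverse (qL1R): tgacaccaaaacagagtgacaa
ANR1 forward (qAF): ccctcaatataaaattccaactgaa
ANR1 reverse (qAR): cagagcccctttgctcttta
They are 20 and 22 bases long for LAR1 and 25 and 20 bases long for ANR1. The ANR1 forward primer has a GC content of 32%, against 40.9% to 50% for the other primers.

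The 6 arrays were alike in their overall signal, with medians of the soybean probe sets from 5.76 to 5.91 and correlations between arrays from 0.983 to 0.996. Probe sets for the pathogens Phytophthora sojae and Heterodera glycines served as a background. The background level of an array is the 95th percentile of these 23394 probe sets, which ranged from 3.54 to 3.78. It was exceeded by 67.1% to 70.1% of the soybean probe sets. Of the 6 probe sets for seed coat genes (Ep, SCB1, HPS, PRP1 and PRP2), all 6 lay above background in every plant. PEPC16, the reference gene of the RT-PCR measurements in the study, had log2 signals of 9.82 ± 0.05 in black and 9.87 ± 0.11 in brown (SD, n = 3), a difference of -0.05 (limma, adjusted p = 0.923).

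LAR1 signal was lower in the black (iRT) seed coat. Its log2 signal was 7.86, 7.90 and 7.92 in black plants, compared with 9.07, 9.05 and 9.08 in brown plants. The genotypes did not overlap, and the gap of 1.14 between them was much wider than the range of 0.06 within black or 0.03 within brown. The means were 7.89 ± 0.03 and 9.07 ± 0.01 (SD, n = 3). LAR1 fell by 1.18 on the log2 scale in black (SE 0.08, 95% confidence interval -1.36 to -0.99), or 2.26-fold. The adjusted p of limma was 0.00361 over all soybean probe sets, and 16 of the 37641 (0.0425%) fell at an adjusted p under 0.05. All 6 plants lay far above the background level. In bulk tissue, less RNA per cell and fewer cells expressing the gene cannot be told apart.

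Among the probe sets that fell, LAR1 ranked 5th by p and 8th by the size of the fall. Black plants lay below all brown plants for 8.3% of soybean probe sets, so that the lack of overlap alone does not set LAR1 apart. Its agreement between plants was close, as its SD within genotypes was 0.0247, and 99.4% of the 24407 probe sets above background in all plants had a larger one. limma raised this SD to 0.0981 in its test by drawing it towards that of all probe sets. The exact permutation test of the same values, two-sided, gave p = 0.1, which is the smallest that 3 plants against 3 allow. Leaving out brown plant 1 or brown plant 3 ended the call in limma, at adjusted p of 0.0519 and 0.05002, while the difference without them was -1.18 and -1.17.

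ANR1 signal, in contrast, lay at the background in both genotypes. In black plants its log2 signal was 3.52, 3.65 and 3.50, where the background levels were 3.70, 3.78 and 3.63. In brown plants it was 3.51, 3.80 and 3.56, against background levels of 3.54, 3.64 and 3.61. Only brown plant 2 exceeded the level of its array, and the genotypes overlapped. The means were 3.56 ± 0.08 in black and 3.63 ± 0.16 in brown (SD, n = 3). The measured difference was -0.07 (SE 0.11, 95% confidence interval -0.32 to 0.19), with an adjusted p of 0.898 in limma and p = 0.6 in the two-sided exact permutation test. No fold is given, since a transcript at this signal has only an upper bound, and a difference in ANR1 was not detectable here.

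**Figure D1:**
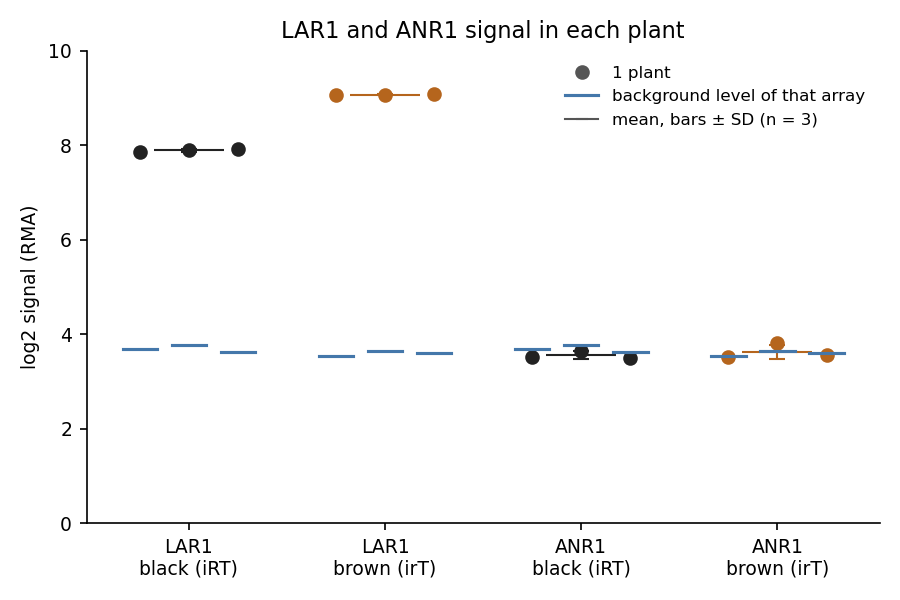
Log2 RMA signal (y axis) of LAR1 and ANR1 in each of the 3 black (iRT) and 3 brown (irT) plants (points, in the order of the replicate numbers), with the mean and SD of each genotype and the background level of each array (blue lines). LAR1 lies at 7.86 to 7.92 in black and at 9.05 to 9.08 in brown, whereas ANR1 lies at 3.50 to 3.80 around the background levels of 3.54 to 3.78.

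Whether the genes differed from one another in their response to genotype was asked with the difference of LAR1 and ANR1 in each plant. This difference was 4.33, 4.25 and 4.42 in black and 5.55, 5.25 and 5.52 in brown on the log2 scale. The means of 4.33 ± 0.08 and 5.44 ± 0.17 (SD, n = 3) differed by -1.11, and the two-sided exact permutation test gave p = 0.1, again the smallest possible. ANR1 was at background, and so this value carries the change of LAR1 and does not tell how ANR1 transcripts responded. The levels of LAR1 and ANR1 come from different probes and are not compared with one another.

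The enzymes around LAR1 and ANR1 in the pathway were examined with a list of 55 probe sets for flavonoid, anthocyanin and isoflavone genes, LAR1 and ANR1 included. Of these, 4 rose, 3 fell and 48 did not pass, so that 7 passed in either direction. Of all soybean probe sets, 0.0664% rose and 0.109% passed in either direction. The median difference of the list was 0.11, compared with -0.02 over all soybean probe sets. The 7 probe sets that passed all stand in the lists that the study chose on these same plants, and are therefore no independent evidence of direction. Of the 48 others, 0 passed in limma, with a lowest adjusted p of 0.0941. A further 5 probe sets of these lists, which have no gene symbol but are described as pathway enzymes, did not pass in limma either. Their adjusted p ranged from 0.0616 to 0.534. Those described as the glycosyltransferases UGT78K2 and UGT78K1 and as similar to F3H had differences of 1.63, 1.49 and 2.68. The probe set similar to F3H overlapped between genotypes and lay above background in only 2 plants. It gave 6.37, 2.98 and 6.76 in black and 2.44, 2.99 and 2.62 in brown, so its difference is uncertain. Those described as similar to IFR1 and as F3'H had differences of -1.88 and -1.32. The study chose these 5 on the same plants too.

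Both enzymes directly before the branch points had members with higher signal in black, the direction opposite to that of LAR1. DFR2, one of the soybean genes for DFR, gave 8.997, 8.72 and 8.85 in black and 3.03, 2.94 and 2.69 in brown. All brown plants lay below background, so DFR2 was at least 38.2-fold higher in black, computed from the mean log2 signals against the background level of each brown array (limma, adjusted p = 1.18e-05). DFR1, the other DFR probe set, lay at 12.64 ± 0.03 in black and 12.55 ± 0.10 in brown (SD, n = 3), and its difference of 0.09 did not pass (limma, adjusted p = 0.810). ANS2, whose enzyme shares leucocyanidin with LAR, gave 13.32, 13.23 and 13.29 in black and 10.51, 10.88 and 10.18 in brown. Its difference was 2.76 (SE 0.17, limma, adjusted p = 0.00261), or 6.77-fold, with every black plant above every brown plant, as for 5.74% of soybean probe sets. The study describes this probe set as ANS2/ANS3, so it may not separate these genes. Its signal was higher and that of LAR1 lower in the black genotype, while ANR1, whose enzyme uses the product of ANS, stayed at the background. These are separate differences between the genotypes, and a link between them was not tested.

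Further upstream lies chalcone synthase, the first enzyme of the flavonoid pathway. Of its 12 probe sets, 2 rose, 2 fell and 8 did not pass, where 0.109% of all soybean probe sets passed. Every probe set of CHS8 was among those that did not pass. The brightest of CHS8 had a mean of 12.75 in black and 12.88 in brown. A probe set annotated CHS1 gave 4.05, 3.58 and 4.09 in black and 8.86, 9.27 and 9.04 in brown, a measured difference of -5.15 (limma, adjusted p = 7.50e-05). Black plant 2 lay below the background level of its array, 3.78, and the other black plants lay above theirs. The probe set that the study describes as CHS9 was at least 14.0-fold lower in black, where it lay below background. A pair of overlapping probe sets described as CHS4 and CHS5 had brown signals below background and exceeded them by at least 5.18-fold and 4.21-fold in black. The chalcone synthase probe sets that passed all carry the symbol CHS1 in the annotation of the array, and near-identical copies of the gene may share their signal. Of the 13 probe sets for chalcone isomerase (CHI), which closes the ring of the chalcone, 0 passed in limma and 8 lay below background in all plants. CHI2-A came closest, with 12.33, 12.26 and 12.27 in black and 11.69, 11.52 and 11.72 in brown, a difference of 0.64 (limma, adjusted p = 0.0941). CHIA1 had a larger difference of 1.43 but varied from 6.47 to 8.86 within black alone and overlapped between genotypes.

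**Figure D2:**
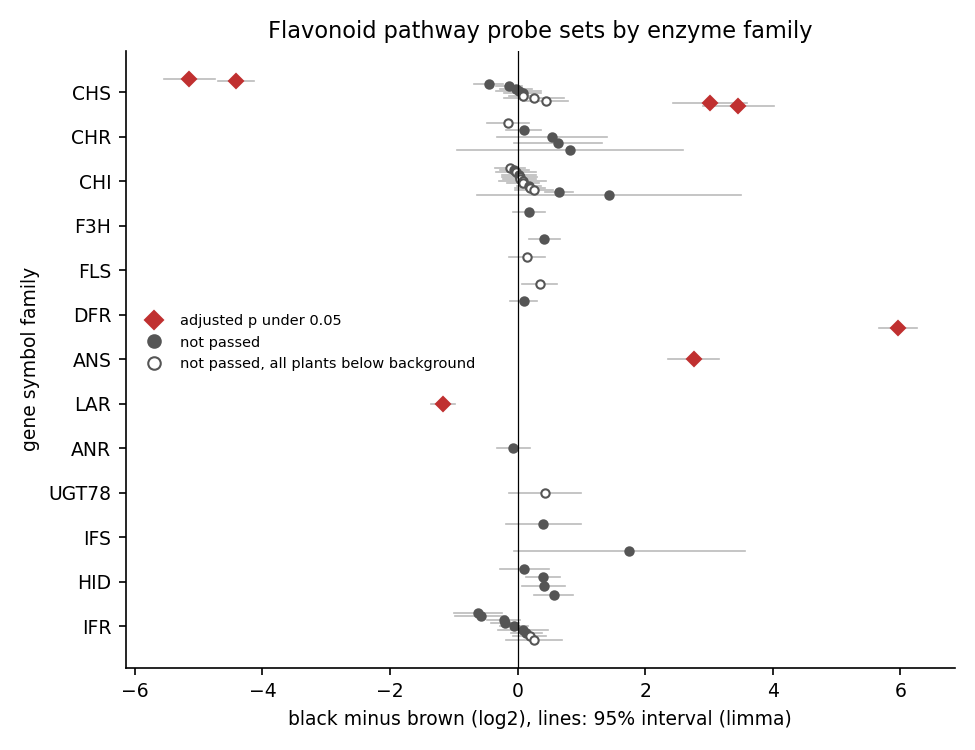
Black minus brown difference in log2 RMA signal (x axis) of the 55 flavonoid pathway probe sets, grouped by enzyme family (y axis), with lines for the 95% confidence interval of limma. Red diamonds mark the 7 probe sets with an adjusted p under 0.05, and open circles those below background in all 6 plants. LAR1 lies at -1.18, ANR1 at -0.07 and ANS2 (described by the study as ANS2/ANS3) at 2.76. DFR2, the rightmost point, and 3 of the CHS diamonds are plotted at their measured differences, although their lower genotype lay below background in all plants and supports only a bound.

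LAR belongs to the same protein family as isoflavone reductase (IFR), which acts in the synthesis of isoflavonoid phytoalexins, whereas ANR is related to DFR. None of the 9 probe sets with an IFR symbol passed in limma (adjusted p 0.426 to 0.923). The 4 probe sets of IFR1 had differences from -0.62 to -0.19, negative as for LAR1 and for 20551 of all 37641 soybean probe sets. The IFR1 probe set with the largest of these 4 differences gave 9.40, 9.51 and 10.00 in black and 10.28, 10.24 and 10.25 in brown. Its genotypes did not overlap, but the range within black was far wider than that of LAR1. The 3 probe sets of IFR2 had differences from -0.06 to 0.13, and both probe sets with the symbol IFR lay below background in all plants. A probe set without a symbol, which the study describes as similar to IFR1, had a difference of -1.88 that did not pass (limma, adjusted p = 0.0684).

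The probe sets whose profile over the 6 plants lay nearest to LAR1 were sought among 6687 probe sets that have a single gene symbol and lay above background in all plants. The measure was the root mean square distance in log2 signal after subtraction of the mean of each probe set, so that any probe set about 1 lower in black lies near, and the values describe likeness only. The nearest, at a distance of 0.17, was annotated MYB179 and gave 4.43, 4.48 and 4.82 in black and 5.62, 5.64 and 5.40 in brown. The next, at 0.20, was annotated MYB79 and gave 7.63, 7.69 and 7.64 in black and 8.43, 8.56 and 8.37 in brown. MYB proteins are transcription factors. RefSeq lists MYB179 and MYB79 as synonyms of 1 gene, MYBZ2, so that these probe sets may measure the same gene. Their differences were -0.98 and -0.80.

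Of the other 3, LOC100500325 (distance 0.20) gave 6.20, 6.75 and 6.67 in black and 7.36, 7.53 and 7.61 in brown. GASA14, a member of a family of small peptides named for their regulation by gibberellin in Arabidopsis, gave 10.62, 10.91 and 10.79 in black and 11.95, 11.38 and 11.82 in brown (distance 0.22). LOC100500204, which the study describes as similar to transporters of the MATE family, gave 4.36, 4.05 and 4.11 in black and 5.57, 5.07 and 5.69 in brown (distance 0.22). All 5 were lower in every black plant than in every brown plant, as were 8.3% of all soybean probe sets. The search itself favours such separation, since LAR1 is separated, and so it is no result about these genes. Only MYB79 passed in limma (adjusted p = 0.0443), and the others had an adjusted p from 0.0791 to 0.190. No such search was made for ANR1, which was not above background in all plants.

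**Figure D3:**
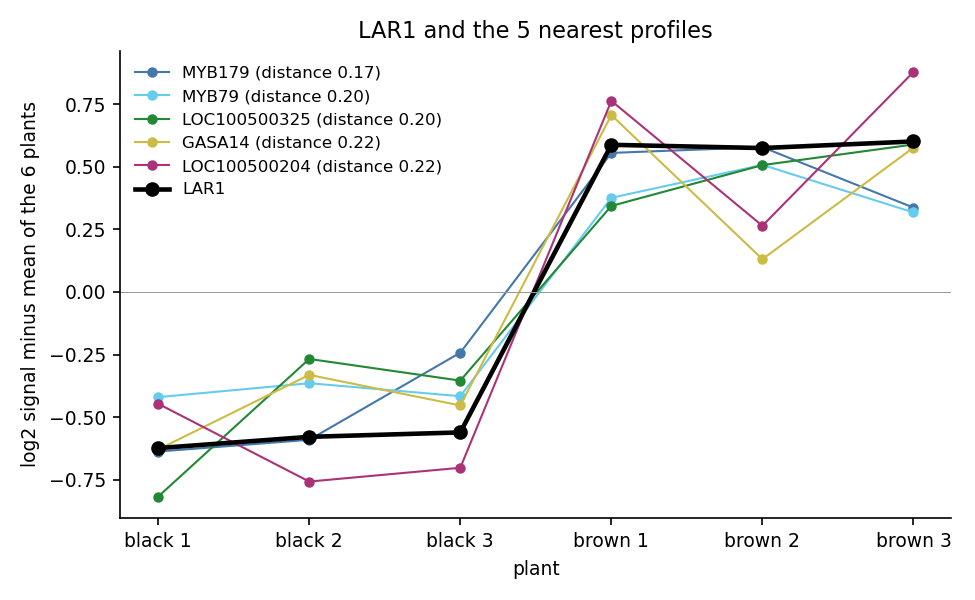
Log2 RMA signal minus the mean of the 6 plants (y axis) for LAR1 (thick black line) and the 5 probe sets with the nearest profiles (thin lines) in each plant (x axis), with the distance of each from LAR1 in the key. LAR1 and, in black, MYB79 are nearly level within a genotype, whereas LOC100500204 ranges from 5.07 to 5.69 in brown before subtraction of the mean.

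Markers of other tissues were compared between the plants, since seed coats are dissected from the embryo. The 53 probe sets for storage and maturation proteins of the embryo had a median difference of 1.08 in black minus brown, and 0 passed in limma. Their mean deviations from the overall mean were 1.64, 0.43 and -0.69 for black, against -0.46, 0.08 and -0.998 for brown (two-sided exact permutation test, p = 0.3). These ranges overlapped between genotypes. The 6 seed coat probe sets had a median difference of -0.03 and the 11 of green tissue one of 0.01, with 0 passing in either list (two-sided exact permutation p = 0.5 and 0.9). The seed coat list was uneven between plants, with mean deviations of 0.56, 0.49 and -0.46 for black and 0.42, 0.30 and -1.31 for brown. Within it, a probe set of PRP2 ranged from 7.60 to 14.35 over the plants. The part of tissue composition in the LAR1 difference was not tested.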

How the data were processed

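RNA from 6 plants was hybridized to GeneChip Soybean Genome Arrays, 1 array per plant. The log2 signals were deposited by the authors after background adjustment and normalization with RMA in FlexArray (version not given in the sources used here). RMA draws arrays towards one distribution, and dim probe sets lose contrast. Lists of the authors' own comparison (fold, SAM score and p) were also deposited. Only their gene descriptions and which probe sets they hold were used.

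The comparison of genotypes used lmFit and eBayes of limma 3.58.1 (R 4.3.3, two-sided), adjusted by Benjamini-Hochberg over 37641 soybean probe sets, with 0.05 as the threshold. Its precision is limited by having 3 arrays per genotype. Of the soybean probe sets, 8677 have 1 symbol, 370 several and 28594 none. Named were LAR1 and ANR1, pathway probe sets that passed or belong to DFR, ANS, IFR or CHI, the 5 nearest profiles, and the controls DFR1 and PEPC. CHI and IFR are named by example, and CHS8 is given beside the chalcone synthase probe sets that passed. Members and lists were chosen with earlier results of these data known. Alternatives included the SAM statistic with the thresholds of the study, other normalizations, a dim filter, replicate blocks and single plants left out. The scripts were tested on simulated data. Figures were drawn with matplotlib 3.10.9.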

Additional observations from a re-analysis of the deposited data

How the results depend on the processing

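The LAR1 difference stayed between -1.18 and -1.13 under other variance settings, array weights, normalizations and probe set filters and passed under each, with an adjusted p from 0.000358 to 0.00575 (the SAM statistic with the thresholds of the study gave an unadjusted p of 2.13e-05). With the replicate number as a block LAR1 still passed, at an adjusted p of 0.0480, and 23 soybean probe sets (14 higher, 9 lower) passed in place of 41. The main test did not treat the numbers as pairs, since the labels number the replicates but name no pairs. The deviations of same-numbered plants were correlated at 0.09, 0.29 and 0.50, and whether they share an effect was not tested. The block changed neither the call of LAR1 nor that of ANR1, but the adjusted p of LAR1 rose from 0.00361 to 0.0480. SAM called 119 soybean probe sets (70 higher, 49 lower). The main test called 25 higher and 16 lower, and after cyclic loess 33 were higher and 13 lower.

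With each plant left out in turn, LAR1 ranged from -1.19 to -1.16 (adjusted p 0.0217 to 0.0519) and passed in 4 of 6 cases, failing without brown plant 1 (-1.18) and without brown plant 3 (-1.17). ANR1 passed under no alternative. Its difference ranged from -0.12 to 0.022 with a plant left out and turned positive, at 0.022, without brown plant 2, the 1 plant above background. The filter for dim probe sets removed ANR1. The difference of LAR1 and ANR1 ranged from -1.20 to -1.05, always with p = 0.1 in the exact permutation test. It could not be restricted to probe sets above background in all plants, because ANR1 has none. The flavonoid list had 5 to 8 probe sets passing over all alternatives, and all soybean probe sets had 13 to 33 with a plant left out.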

Other observations

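The genes near LAR1 and ANR1 on their chromosomes were examined in the Glycine max v4.0 assembly, in which 8652 soybean probe sets have a position. Within 1 Mb of LAR1 lie 30 other probe sets, of which 0 passed in limma, with differences in log2 signal from -0.46 to 0.35 and a median of -0.03. Over all soybean probe sets 0.0425% fell and 0.0664% rose, so that a count of 0 among 30 does not set these neighbours apart. Within 1 Mb of ANR1 lie 51 other probe sets, with a median difference of -0.01. Of them, 43 lay above background in all plants, compared with 6687, besides LAR1, of the 8677 soybean probe sets with 1 symbol. The 1 that rose was LOC100819551, chosen for mention after its values were seen, with 8.74, 8.65 and 8.70 in black and 7.92, 7.73 and 7.74 in brown. Its difference was 0.90 (limma, adjusted p = 0.0315), and an overlapping probe set of the same gene had a difference of 0.85 that did not pass (adjusted p = 0.0765). The remaining probe set of this gene had a smaller difference of 0.56, which did not pass either (limma, adjusted p = 0.549).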
